A study of Mus musculus with 14 samples.

Results

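Acute phase and iron handling genes were followed across the adipocytes of 3 mouse fat depots and 2 diets. The set held 10 genes of the 38553 in each table, taken by name: 6 genes of acute phase proteins (Saa3, Hp, Hpx, Lcn2, Orm1 and Lbp) and 4 genes of iron and heme handling (Tfrc, Trf, Slc40a1 and Hmox1). Male mice on a C57BL/6 background received regular chow (the normal diet) or the high-fat diet D12492 for 16 weeks from weaning at 3 weeks of age. Fat pads were digested with collagenase, for 20 min (epididymal and inguinal white fat) or 40 min (interscapular brown fat), and the floating adipocyte layer was sequenced as poly(A) RNA. The 14 libraries comprised epididymal adipocytes on the normal and on the high-fat diet, inguinal adipocytes on the normal and on the high-fat diet (3 biological replicates in each of these 4 groups, numbered 0, 1 and 2), and 1 brown library per diet. Every library pooled the tissue of 3 to 5 mice, so differences between single mice were not measured.

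The acute phase response is the change in secreted proteins that follows infection, injury or inflammation, driven in the liver by cytokines acting through STAT3, NF-kB and C/EBP factors, and adipocytes are known to make several of the same proteins. Many of these proteins keep iron from microbes or limit damage by free heme: haptoglobin (Hp) captures haemoglobin, hemopexin (Hpx) captures heme, and lipocalin 2 (Lcn2) captures bacterial siderophores. Cells take up iron bound to transferrin (Trf) through the transferrin receptor (Tfrc), break heme down with heme oxygenase (Hmox1), and release iron through ferroportin (Slc40a1), the known iron exporter of mammalian cells.

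RefSeq promoter entries (GRCm38.p6) matched 4 of the 10 genes: Saa3, Lcn2, Hpx and Tfrc, the last with 2 entries. The 250 bases before the annotated start of Saa3, Lcn2 and Hpx, the members with an entry that moved with diet, are printed 5′ to 3′ on the strand of the gene, with motif matches in capitals. The Saa3 window is chr7:46715677-46715926 (minus strand, inside the annotated span of the gene), the Lcn2 window chr2:32387740-32387989 (minus strand) and the Hpx window chr7:105600117-105600366 (minus strand).
Saa3: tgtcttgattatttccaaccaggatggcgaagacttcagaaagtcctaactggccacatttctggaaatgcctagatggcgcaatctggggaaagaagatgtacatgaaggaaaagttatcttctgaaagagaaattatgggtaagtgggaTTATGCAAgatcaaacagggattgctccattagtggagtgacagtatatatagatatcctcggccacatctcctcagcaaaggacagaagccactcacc
Lcn2: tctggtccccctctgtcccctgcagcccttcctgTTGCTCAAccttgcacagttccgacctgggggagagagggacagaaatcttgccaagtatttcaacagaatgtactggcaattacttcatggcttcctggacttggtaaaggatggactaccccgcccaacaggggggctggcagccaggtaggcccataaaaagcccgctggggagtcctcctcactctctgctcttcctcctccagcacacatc
Hpx: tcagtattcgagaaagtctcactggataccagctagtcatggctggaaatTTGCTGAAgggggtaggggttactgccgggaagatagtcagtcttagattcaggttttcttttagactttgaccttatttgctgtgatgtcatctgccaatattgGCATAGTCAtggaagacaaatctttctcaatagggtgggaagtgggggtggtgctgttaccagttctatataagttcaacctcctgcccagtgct

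The motifs searched on both strands were TTGCNNAA for C/EBP, GGGA with CC after any 4 bases for NF-kB, TTCNNNGAA for STAT3 and TGACNNNGC for the antioxidant response element. Saa3 held the C/EBP letters on the opposite strand, 99 to 92 bases before the start. Lcn2 held them on the printed strand at 216 to 209 bases, and Hpx on the printed strand at 200 to 193 bases. Hpx also held the antioxidant response element letters on the opposite strand, 95 to 87 bases before the start. No match to these 4 motifs was found in either Tfrc window. Of all 32851 promoter entries, 9.56% held the C/EBP letters in the same length of sequence, 10.2% the antioxidant response element, 17.6% NF-kB and 7.02% STAT3. A match is a description of letters and not a measured site.

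Values are FPKM (fragments per kilobase of transcript, relative to library size), which can be compared between genes because they are divided by transcript length. No read counts come with them, so read depth was unknown; the number of genes above 0 per library ran from 15399 to 18029. All 9 adipocyte markers were above 0 in every library, with a summed level of 16835 to 41923 FPKM. Markers of other cells differed between libraries. The 13 macrophage markers had summed levels of 1197 to 2124 FPKM in the epididymal high-fat group and 347 to 634 FPKM in the epididymal normal-diet group, with the Kupffer cell gene Clec4f listed at 0 in all libraries. The 12 lymphocyte markers summed to 943 and 1376 FPKM in inguinal normal-diet replicates 0 and 2, to 119 FPKM in replicate 1, and to between 32.7 and 157 FPKM in the other white groups. In lymphocyte markers inguinal normal-diet replicates 0 and 2 therefore stood apart from the other white libraries, with replicate 1 inside the range of the other white groups. Replicate 1 also differed from the other libraries of its group in these genes. It held the highest value of that group for 8 of the 10 genes, and the highest summed level of adipocyte markers of all libraries. Most of that sum came from Fabp4 and Cfd, whose highest values in the group were 20129 and 15126 FPKM. Comparisons that use the inguinal normal-diet group are also given without replicates 0 and 2, a choice made after seeing the data.

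The 10 genes differed widely in level. Hp and Trf were at 586 FPKM or more in all 14 libraries, Orm1 between 78.1 and 370 FPKM, and Hpx at 4.64 FPKM or lower. Group means were highest in epididymal high-fat adipocytes for 7 genes, in inguinal high-fat ones for Tfrc, in the normal-diet brown library for Trf and in epididymal normal-diet ones for Slc40a1. With the library scaling changed to equal nuclear sums or to TMM factors, Orm1 and Tfrc were highest in the normal-diet brown library.

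**Figure D1:**
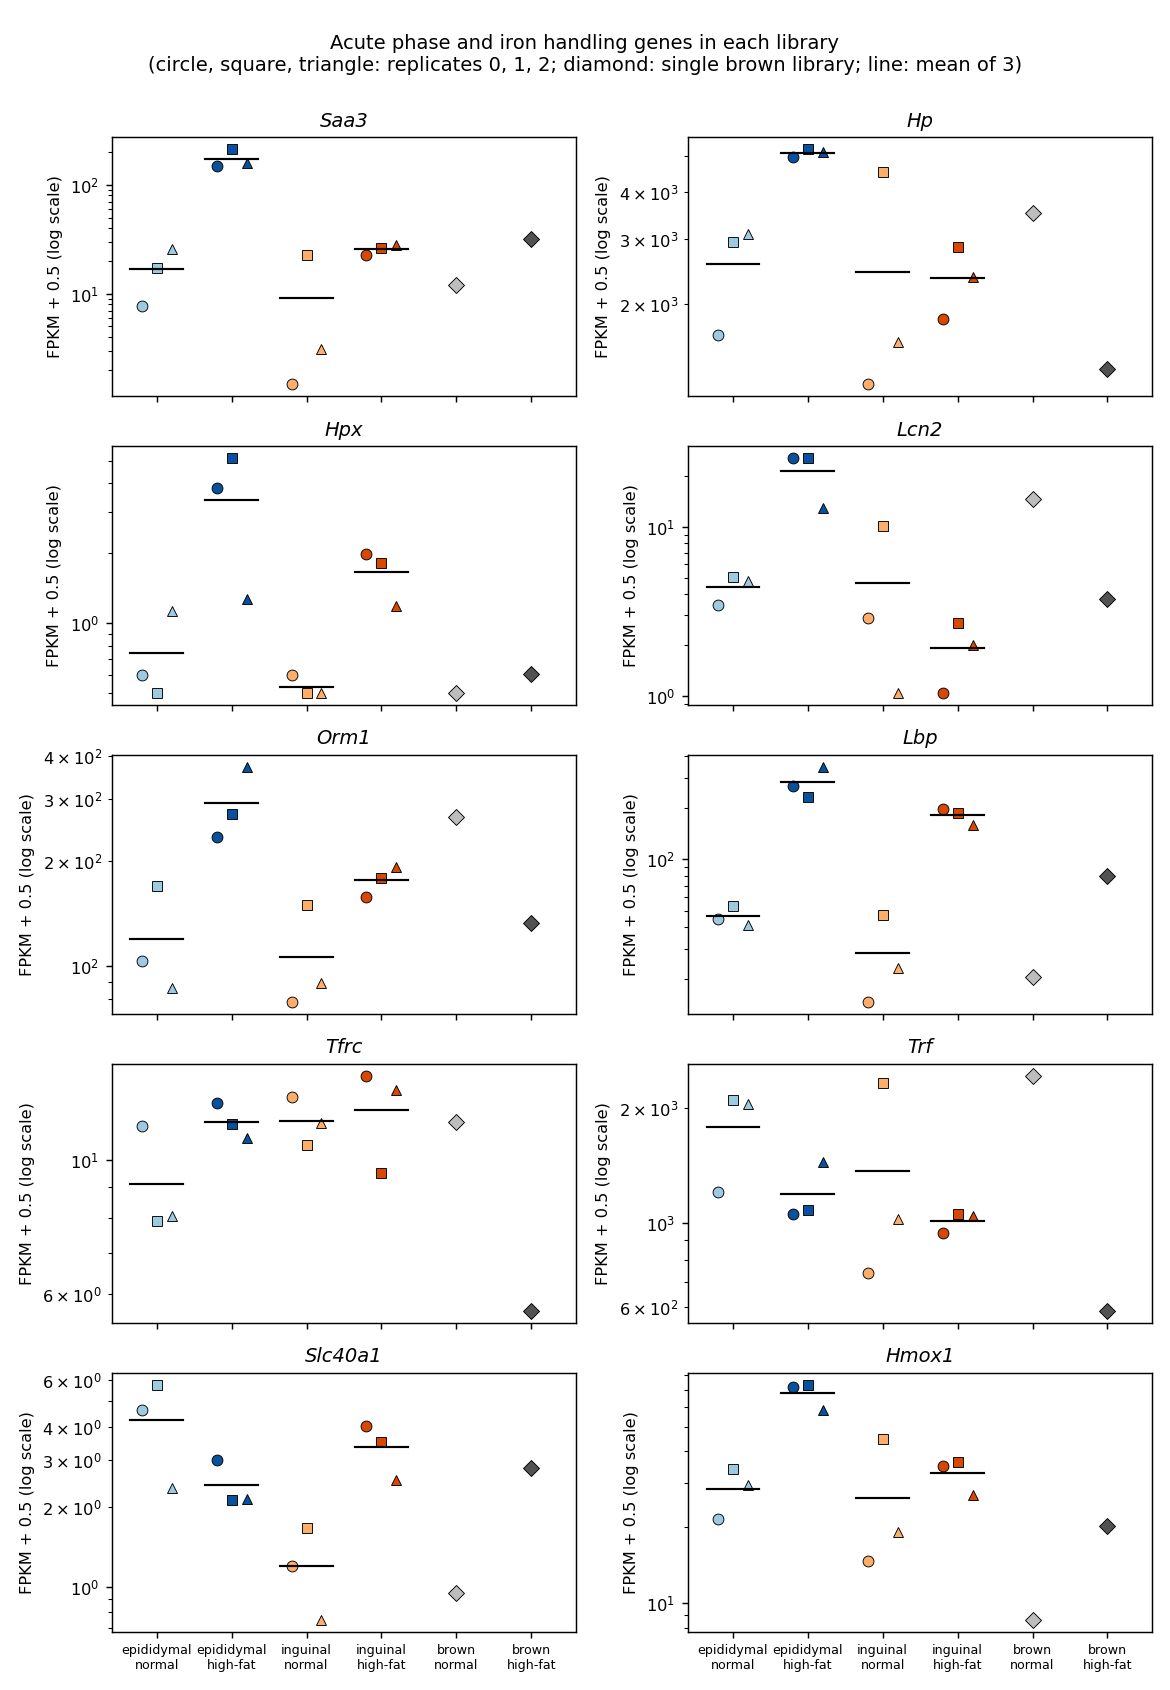
FPKM + 0.5 of the 10 genes on a log axis, 1 point per library in the 6 groups, with a line at the mean of 3 libraries. Saa3, Lbp and Hmox1 lie highest in the 3 epididymal high-fat libraries (147 to 212, 232 to 345 and 57.7 to 72.8 FPKM), and the inguinal normal-diet square (replicate 1) lies above its group's other points in 8 of 10 panels.

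The first comparison asked what the high-fat diet changed in epididymal adipocytes. Of the 10 genes, 6 rose (5 of 6 acute phase and 1 of 4 iron genes), none fell and 4 did not pass, by limma with Benjamini-Hochberg adjustment over 14959 genes. Over all genes tested 12.2% rose, 7.35% fell and 19.5% were called in either direction. The median log2 difference of the 10 genes was 1.298, against 0.07 over all genes. Hpx entered the test through its high-fat libraries, so its rise is a description and no support; without it 5 of 9 genes rose, with a median of 1.27. For 7 of the 10 genes, Hpx among them, each of the 3 high-fat libraries exceeded every normal-diet library, as for 25.7% of all genes.

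Saa3, an acute phase serum amyloid A gene expressed outside the liver (ENSMUSG00000040026, chromosome 7, 46711998 to 46719615 in GRCm38.p6), stood at 147, 212 and 159 FPKM in high-fat replicates 0, 1 and 2, and at 7.28, 16.8 and 25.5 FPKM in the normal-diet replicates. The groups were far apart, with the lowest high-fat library several times above the highest normal-diet one. The mean rose 10.5-fold, from 16.5 ± 9.10 to 173 ± 34.5 FPKM (SD, n = 3 each), and the difference on the log2(FPKM + 0.5) scale was 3.495 (SE 0.76, limma adjusted p = 0.0071). Lbp encodes the lipopolysaccharide-binding protein, which hands bacterial lipopolysaccharide to CD14 (ENSMUSG00000016024, chromosome 2, 158306493 to 158332852). It stood at 269, 232 and 345 FPKM on the high-fat diet and at 44.2, 53.2 and 41.0 FPKM on the normal diet. Both groups were tight and did not overlap. The mean rose 6.11-fold (46.1 ± 6.31 to 282 ± 57.8 FPKM; log2 difference 2.59, SE 0.34, limma adjusted p = 0.00026), the smallest adjusted p of the 10 genes in this comparison.

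Orm1, for the acute phase glycoprotein orosomucoid (ENSMUSG00000039196, chromosome 4, 63344556 to 63348163), stood at 234, 271 and 370 FPKM on the high-fat diet and at 103, 168 and 86.0 FPKM on the normal diet. The groups did not overlap, and normal-diet replicate 1 was the closest to the high-fat libraries. The mean rose 2.45-fold (log2 difference 1.32, SE 0.29, limma adjusted p = 0.0078). Lcn2 (ENSMUSG00000026822, chromosome 2, 32384637 to 32387739) stood at 25.0, 25.0 and 12.3 FPKM on the high-fat diet and at 2.97, 4.53 and 4.29 FPKM on the normal diet. High-fat replicate 2 was below the other high-fat libraries but above every normal-diet one. The mean rose 5.28-fold (log2 difference 2.21, SE 0.65, limma adjusted p = 0.033).

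Hpx (ENSMUSG00000030895, chromosome 7, 105591611 to 105600116) was the lowest of the acute phase genes, at 3.31, 4.64 and 0.773 FPKM on the high-fat diet and at 0.101, 0 and 0.633 FPKM on the normal diet. High-fat replicate 2 and normal-diet replicate 2 nearly met. Apart from normal-diet replicate 2, only high-fat libraries brought Hpx past the filter on low values, so its log2 difference of 2.07 (SE 0.49, limma adjusted p = 0.011) is given as a description. No fold is given because a library was listed at 0. Hp (ENSMUSG00000031722, chromosome 8, 109575128 to 109579172) was the highest, at 4979, 5224 and 5138 FPKM on the high-fat diet and 1655, 2934 and 3093 FPKM on the normal diet. Its high-fat libraries were close to each other and all above the normal-diet ones, but the difference did not pass (log2 difference 1.05, SE 0.46, limma adjusted p = 0.14). The standard error came from all 4 white groups, and without inguinal normal-diet replicate 1, which does not enter the difference itself, the adjusted p was 0.0156.

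Of the iron genes, Hmox1 rose (ENSMUSG00000005413, chromosome 8, 75093618 to 75100593). It stood at 71.4, 72.8 and 57.7 FPKM on the high-fat diet and at 21.1, 33.6 and 29.0 FPKM on the normal diet, without overlap. The mean rose 2.41-fold (27.9 ± 6.34 to 67.3 ± 8.39 FPKM; log2 difference 1.27, SE 0.34, limma adjusted p = 0.021). Tfrc (ENSMUSG00000022797, chromosome 16, 32608896 to 32632794) stood at 11.9, 10.9 and 10.4 FPKM on the high-fat diet and at 10.9, 7.41 and 7.56 FPKM on the normal diet, and these groups overlapped (log2 difference 0.36, limma adjusted p = 0.25).

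Trf (ENSMUSG00000032554, chromosome 9, 103208876 to 103230286) stood at 1053, 1076 and 1442 FPKM on the high-fat diet and at 1203, 2097 and 2046 FPKM on the normal diet. Its mean was lower on the high-fat diet, within the spread of the libraries (log2 difference −0.55, limma adjusted p = 0.37). Under quantile normalization this difference passed (log2 difference −1.31, limma adjusted p = 0.0042). Slc40a1 (ENSMUSG00000025993, chromosome 1, 45908070 to 45926532) stood at 2.50, 1.62 and 1.63 FPKM on the high-fat diet and at 4.14, 5.27 and 1.85 FPKM on the normal diet. Normal-diet replicate 2 lay among the high-fat libraries, and the difference did not pass (log2 difference −0.74, limma adjusted p = 0.21).

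The Saa3, Orm1 and Lbp calls in epididymal adipocytes held in all 23 alternatives. Hpx no longer passed with high-fat replicate 0 or 1 left out (limma adjusted p = 0.0561 and 0.0591) and with only the 2 groups fitted (0.051), and Hmox1 did not with either of the same libraries or normal-diet replicate 0 left out (0.0728, 0.0731 and 0.0812) and under quantile normalization (0.0504). Lcn2 no longer passed with high-fat replicate 0 or 1 left out (0.111 and 0.109), with normal-diet replicate 0, 1 or 2 left out (0.103, 0.065 and 0.0701), with a pseudocount of 0.1 (0.0575) and without a filter (0.0718).

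Markers of macrophages moved in the same direction as these 6 genes. Of 12 macrophage markers tested, 7 rose and 1 fell in epididymal high-fat adipocytes, among them Cd68 (log2 difference 3.19, limma adjusted p = 8.7e-05) and Trem2 (log2 difference 4.58, limma adjusted p = 0.00025). The neutrophil markers summed to 54.6 to 63.5 FPKM on the high-fat and 14.05 to 25.4 FPKM on the normal diet, and most of the high-fat sum was S100a8 (53.1 to 60.6 FPKM). Of 6 neutrophil markers tested S100a8 rose (log2 difference 3.15, limma adjusted p = 0.037) and 5 did not pass. The median of the 6 was −0.83, with values below 0 for S100a9 (−1.93), Elane (−1.60), Retnlg (−1.44) and Cxcr2 (−0.21). Ly6g, Camp and Ngp were listed at 0 in all 3 high-fat libraries. On the normal diet Ly6g was also listed at 0 in every epididymal library, Ngp in replicates 0 and 1 and Camp in replicate 1. Erythroid markers were lower on the high-fat diet (273 to 419 against 1098 to 3488 FPKM), and 5 of 5 tested fell. Endothelial markers summed to 41.2 to 79.1 FPKM on the high-fat and 434 to 503 FPKM on the normal diet, and 8 of 9 fell (median log2 −2.71). Fibroblast and preadipocyte markers summed to 240.02 to 375 and 690.5 to 1206 FPKM, and 5 of 9 fell (median log2 −1.93). The mitochondrial share of protein-coding FPKM was 26.9% to 37.0% in the high-fat and 40.3% to 66.7% in the normal-diet libraries. Hepatocyte markers summed to between 0.779 and 23.8 FPKM over all libraries, and Ttr and Fgb were listed at 0 in every one. The part of these other cells and of the mitochondrial share in the differences of the 6 genes was not tested. In bulk samples, fewer cells of a type and less RNA per cell cannot be told apart.

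**Figure D2:**
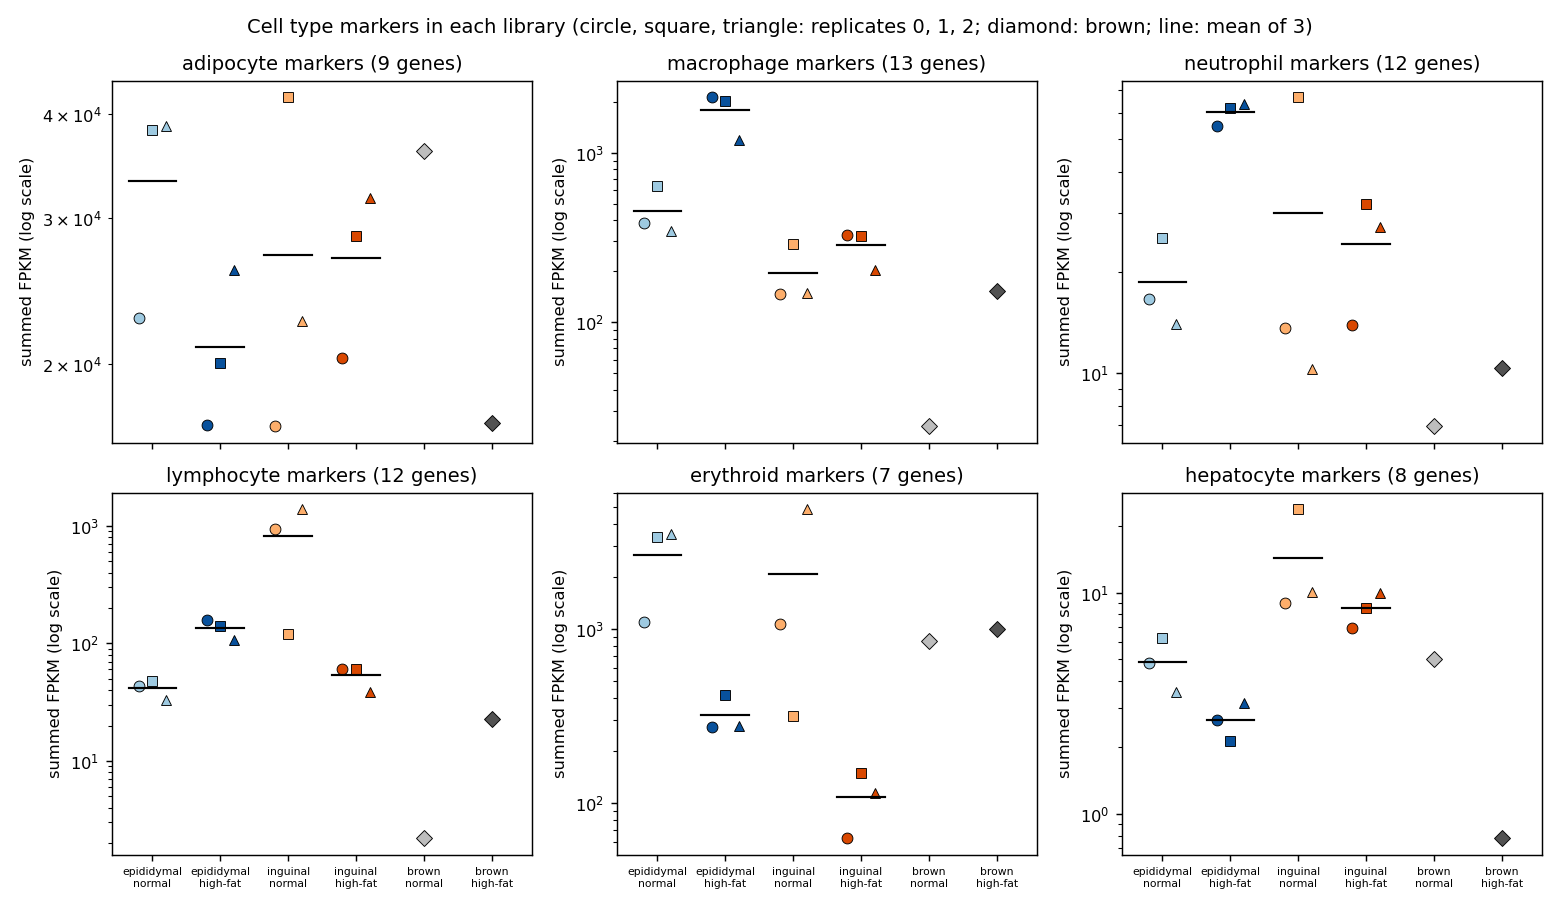
Summed FPKM of 6 marker lists on log axes, 1 point per library in the 6 groups, with a line at the mean of 3 libraries. Macrophage sums are highest in epididymal high-fat libraries (1197 to 2124 FPKM), and lymphocyte sums in inguinal normal-diet replicates 0 and 2 (943 and 1376 FPKM).

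In inguinal adipocytes the same comparison of diets called 4 of the 10 genes higher (3 of 6 acute phase and 1 of 4 iron genes) and none lower. Over all genes 9.3% rose, 10.2% fell and 19.5% were called in either direction. The median log2 difference of the 10 genes was 0.63, against −0.01 over all genes. Without Hpx, which entered the test through its high-fat libraries, 3 of 9 genes rose, with a median of 0.48. For 5 of the 10 genes, Hpx among them, each high-fat library exceeded every normal-diet library, as for 15.8% of all genes.

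Lbp stood at 197, 185 and 157 FPKM on the high-fat diet and at 14.1, 46.9 and 22.7 FPKM in normal-diet replicates 0, 1 and 2. All high-fat libraries were well above the normal-diet ones, replicate 1 included. The mean rose 6.44-fold (27.9 ± 17.0 to 180 ± 20.5 FPKM; log2 difference 2.83, SE 0.34, limma adjusted p = 0.00037), and the call held in all 23 alternatives. Saa3 stood at 22.3, 26.0 and 27.3 FPKM on the high-fat diet and at 0.971, 22.2 and 2.61 FPKM on the normal diet. Normal-diet replicate 1 was about level with the high-fat libraries, while replicates 0 and 2 were far below them (log2 difference 2.44, SE 0.76, limma adjusted p = 0.042).

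Hpx stood at 1.49, 1.33 and 0.688 FPKM on the high-fat diet, and on the normal diet it was listed at 0 in replicates 1 and 2 and at 0.101 FPKM in replicate 0. The groups did not overlap, and since no inguinal normal-diet library brought Hpx past the filter, the log2 difference of 1.62 (SE 0.49, limma adjusted p = 0.038) is again a description. Slc40a1 stood at 3.53, 3.01 and 2.03 FPKM on the high-fat diet and at 0.693, 1.16 and 0.248 FPKM on the normal diet. Its groups did not overlap either, and the mean rose 4.08-fold (log2 difference 1.53, SE 0.38, limma adjusted p = 0.016).

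Orm1 was at 157, 178 and 191 FPKM on the high-fat diet and at 78.1, 149 and 88.9 FPKM on the normal diet. These groups did not overlap, but the difference did not pass (log2 difference 0.79, limma adjusted p = 0.080); it passed with the replicate number as a block (0.048) and without normal-diet replicate 1 (0.0127). Hp stood at 1825, 2844 and 2373 FPKM against 1218, 4547 and 1579 FPKM, and normal-diet replicate 1 held the highest inguinal value (log2 difference 0.16, limma adjusted p = 0.83). Lcn2 was at 0.547, 2.19 and 1.496 FPKM on the high-fat diet and at 2.37, 9.60 and 0.537 FPKM on the normal diet, again with replicate 1 far above the other libraries (log2 difference −0.81, limma adjusted p = 0.42).

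Hmox1 stood at 34.5, 35.6 and 26.3 FPKM on the high-fat diet and at 14.1, 44.1 and 18.7 FPKM on the normal diet. Replicate 1 exceeded every high-fat library and the other normal-diet ones fell short of them (log2 difference 0.48, limma adjusted p = 0.35). The inguinal difference of Hmox1 passed without normal-diet replicate 1 (log2 difference 0.95, limma adjusted p = 0.0096). Tfrc lay between 8.99 and 13.3 FPKM in the 6 inguinal libraries (log2 difference 0.05, limma adjusted p = 0.90). Trf lay between 936 and 1056 FPKM on the high-fat diet and at 738, 2327 and 1023 FPKM on the normal diet (log2 difference −0.26, limma adjusted p = 0.68).

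The Saa3, Hpx and Slc40a1 calls in inguinal adipocytes depended on the libraries used. Without normal-diet replicates 0 and 2, which leaves replicate 1 as the only normal-diet library and assumes that it varies like the other groups, the log2 difference was 0.17 for Saa3 (limma adjusted p = 0.901), 1.70 for Hpx (0.206), 0.99 for Slc40a1 (0.273) and −2.51 for Lcn2 (0.0188, a call in the lower direction). With 1 inguinal library left out, the Saa3 call was lost in 5 of 6 cases (limma adjusted p of 0.0859 to 0.136; it held without normal-diet replicate 1), the Hpx call in 6 of 6 (0.0514 to 0.113) and the Slc40a1 call with high-fat replicate 0, high-fat replicate 1 or normal-diet replicate 2 left out (0.0619, 0.0567 and 0.0561). Saa3 was also lost without epididymal normal-diet replicate 1 or any 1 of the 3 epididymal high-fat libraries (0.0568 to 0.0583), without a filter (0.0875) and with only the 2 groups fitted (0.148). Hpx was also lost without epididymal high-fat replicate 0 (0.0521), with a pseudocount of 1 (0.068), without a filter (0.0672) and with array weights (0.0768), and Slc40a1 with only the 2 groups fitted (0.0676). In this comparison all 12 lymphocyte markers tested fell, as did 4 of 5 erythroid and 5 of 9 fibroblast and preadipocyte markers. The mitochondrial share was 26.9% to 35.2% in the high-fat libraries, 20.6% in normal-diet replicate 1 and 52.1% and 60.7% in replicates 0 and 2. The summed neutrophil markers were at 66.5 FPKM in normal-diet replicate 1 against 13.6 and 10.3 FPKM in replicates 0 and 2, and the part of these cells in the differences was not tested.

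**Figure D3:**
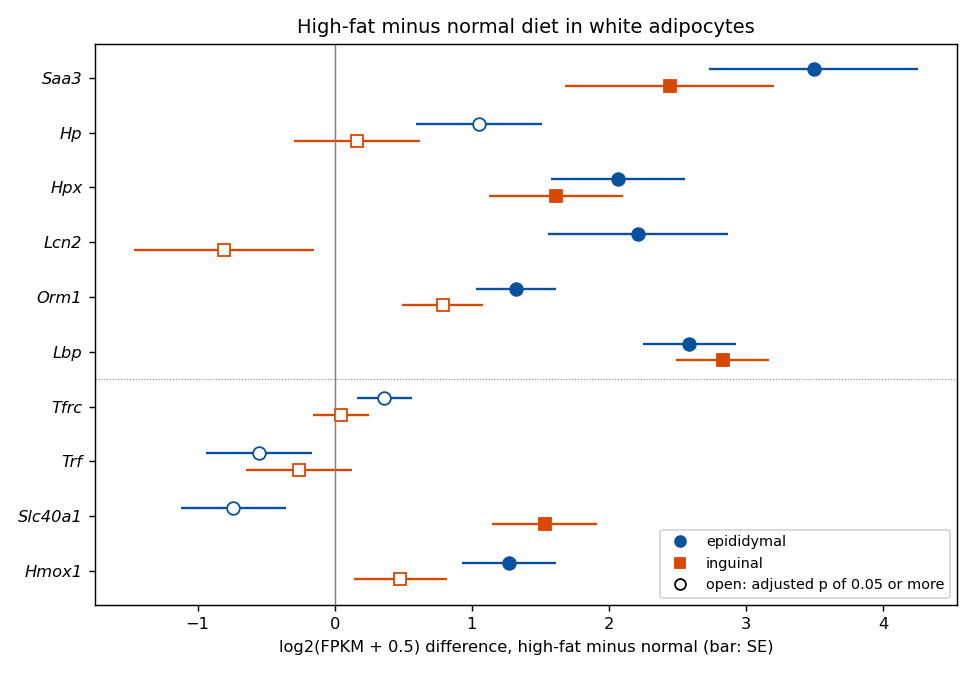
Log2 difference (high-fat minus normal diet, on log2(FPKM + 0.5)) of the 10 genes in epididymal (circles) and inguinal (squares) adipocytes, with bars of 1 SE; filled symbols passed the test and open ones did not. Lbp is at 2.59 and 2.83, while Slc40a1 is at −0.74 and 1.53 and Lcn2 at 2.21 and −0.81.

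Whether the diet effect differed between the white depots was tested as the interaction (epididymal minus inguinal effect). Of the 10 genes, Slc40a1 was called, with the lower effect in epididymal adipocytes, while 7.22% of all genes were called in either direction and 2.42% in the same direction. The ferroportin gene was higher on the high-fat diet in inguinal libraries and had a lower mean on it in epididymal ones, and the 2 effects differed by −2.27 (log2, SE 0.54, limma adjusted p = 0.028). It was not called with epididymal high-fat replicate 0, 1 or 2 left out (limma adjusted p = 0.0534, 0.0795 and 0.0609), epididymal normal-diet replicates 0 or 1 (0.071 and 0.0622), inguinal high-fat replicates 0 or 1 (0.0695 and 0.065), both inguinal normal-diet replicates 0 and 2 (0.122) or the filter (0.0648), with values between −2.44 and −1.73. In the interaction 8 of 9 endothelial markers were also called lower (median log2 −2.18), and their part was not tested.

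Lcn2 had the largest interaction, 3.02 (SE 0.93), which did not pass (limma adjusted p = 0.072). It passed with the replicate number as a block (0.0459), with array weights (0.0116), and without inguinal normal-diet replicates 1 (0.0454), 2 (0.0126) or both 0 and 2 (log2 difference 4.72, 0.0049). In that last setting Saa3 (3.32, limma adjusted p = 0.0142), Hp (2.03, 0.0399) and Hmox1 (1.74, 0.0184) also passed. For Lbp the effects of 2.59 and 2.83 differed by −0.24 (SE 0.48, limma adjusted p = 0.82).

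Between the white depots on the normal diet, 1 of the 10 genes was called, against 6.51% of all genes in either direction (2.36% higher in epididymal adipocytes). Slc40a1 was 5.36-fold higher in epididymal than in inguinal adipocytes by the group means (3.75 ± 1.74 against 0.7001 ± 0.456 FPKM, SD, n = 3 each). The libraries did not overlap (1.85 to 5.27 against 0.248 to 1.16 FPKM), as for 8.82% of all genes in that direction, and the log2 difference was 1.80 (SE 0.38, limma adjusted p = 0.020). It was not called with epididymal normal-diet replicate 0 or 1 left out (limma adjusted p = 0.0656 and 0.0702), without inguinal normal-diet replicate 2 (0.0716), without both inguinal replicates 0 and 2 (0.206) and with only the 2 groups fitted (0.195). The other 9 genes had overlapping groups, with log2 differences from −0.36 (Tfrc) to 1.69 (Saa3, limma adjusted p = 0.20). Without inguinal normal-diet replicate 1, Saa3 (log2 difference 2.83, limma adjusted p = 0.0015), Lbp (1.33, 0.0032), Trf (0.99, 0.0287) and Hmox1 (0.74, 0.0445) passed. Of 12 lymphocyte markers 11 were lower in epididymal adipocytes here and 6 of 7 mesothelial markers higher, and their part in these differences was not tested.

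On the high-fat diet 2 of the 10 genes were called higher in epididymal than in inguinal adipocytes, Lcn2 and Saa3, against 10.6% of all genes in either direction and 7.08% higher. Lcn2 was at 12.3 to 25.0 FPKM in epididymal and at 0.547 to 2.19 FPKM in inguinal libraries. Its mean was 14.7-fold higher in epididymal adipocytes, and the log2 difference of 3.51 (SE 0.65, limma adjusted p = 0.0056) held in all 23 alternatives. The Saa3 mean was 6.87-fold higher (147 to 212 against 22.3 to 27.3 FPKM; log2 difference 2.74, SE 0.76, limma adjusted p = 0.039). The Saa3 call was lost without any 1 of the 6 high-fat libraries (limma adjusted p from 0.0913 to 0.134), without epididymal normal-diet replicate 1 (0.0552), with a pseudocount of 0.1 (0.0542), without a filter (0.0881) and under quantile normalization (0.0721).

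For 6 genes (Saa3, Hp, Lcn2, Orm1, Lbp and Hmox1) every epididymal high-fat library lay above every inguinal one, as for 23.2% of all genes. Hmox1 was 2.09-fold higher by the means (67.3 ± 8.39 against 32.2 ± 5.09 FPKM), and its difference did not pass (log2 difference 1.06, SE 0.34, limma adjusted p = 0.073). With the replicate number as a block the Hmox1 difference passed (limma adjusted p = 0.0363), as it did with only the 2 groups fitted (0.0061). Hp was 2.18-fold higher (log2 difference 1.15, limma adjusted p = 0.16) and also passed with only the 2 groups fitted (0.0165). The log2 differences of Orm1 and Lbp were 0.71 and 0.64 and did not pass (limma adjusted p = 0.17 and 0.30). With only the 2 groups fitted both were just under the threshold (limma adjusted p = 0.0414 and 0.0468). Tfrc, Trf and Slc40a1 overlapped between the depots (log2 difference −0.05, 0.22 and −0.47). Of 12 macrophage markers 8 were higher in epididymal high-fat adipocytes, with sums of 1197 to 2124 against 204 to 329 FPKM. Of 9 endothelial markers 8 were lower there (41.2 to 79.1 against 225 to 316 FPKM), and 5 of 7 mesothelial markers were higher. The part of these cells in the differences was not tested.

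**Figure D4:**
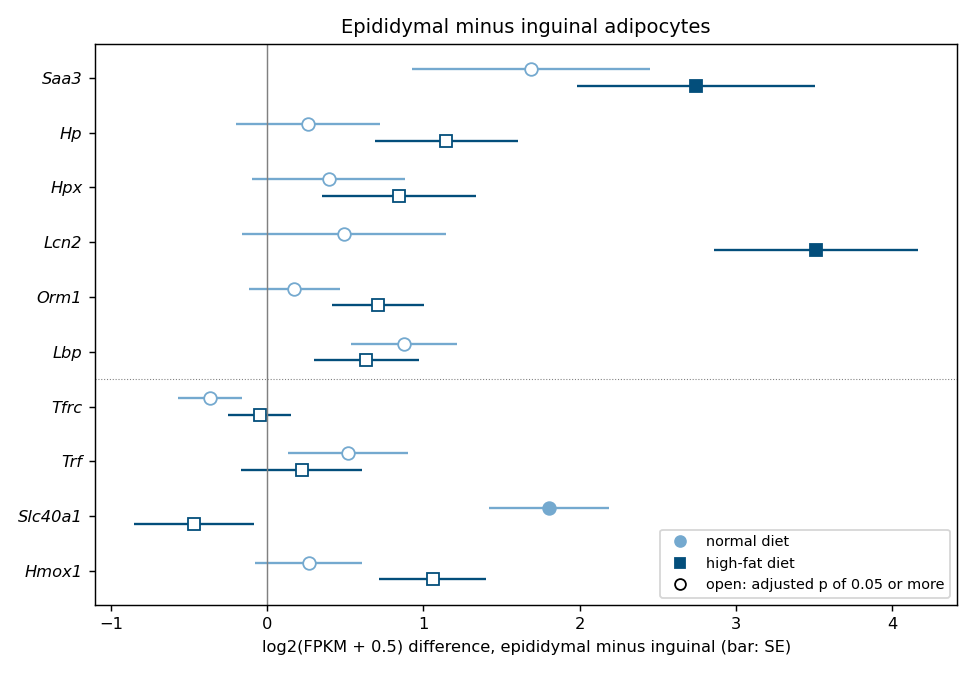
Log2 difference (epididymal minus inguinal, on log2(FPKM + 0.5)) of the 10 genes on the normal and on the high-fat diet, with bars of 1 SE; filled symbols passed the test and open ones did not. Slc40a1 passed on the normal diet (1.80), and Saa3 (2.74) and Lcn2 (3.51) passed on the high-fat diet.

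Brown adipocytes had 1 library per diet, so no error and no test can be given. The values differed by more than 2-fold between the brown libraries for 9 of the 10 genes, against 17.6% of 14339 genes. On the high-fat diet 4 genes were higher: Saa3 (31.0 against 11.5 FPKM), Lbp (79.1 against 19.9), Slc40a1 (2.30 against 0.443) and Hmox1 (19.7 against 8.07). For all genes 11.6% were past 2-fold higher. The other 5 were lower, against 6.05% of all genes: Hp (1336 against 3513 FPKM), Lcn2 (3.25 against 13.996), Orm1 (132 against 266), Tfrc (5.11 against 11.1) and Trf (586 against 2422).

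Orm1 and Tfrc were close to the 2-fold limit, and with equal nuclear sums 3 genes rather than 5 were past it in the lower direction. Hpx was listed at 0 on the normal diet and at 0.108 FPKM on the high-fat diet. None of the 10 genes lay above the range of the 12 white libraries in both brown libraries, or below it in both. Of all genes 0.955% lay above and 11.7% below it in both. Trf lay above the white range on the normal diet (2422 FPKM, with a white maximum of 2327). On the high-fat diet Trf lay below that range (586 FPKM, with a white minimum of 738). The brown libraries were rich in mitochondrial mRNA, which made up 82.5% and 80.7% of protein-coding FPKM on the high-fat and normal diets, against 20.6% to 66.7% in white libraries. Macrophage markers summed to 152 FPKM on the high-fat and 24.3 FPKM on the normal diet in brown libraries. Adipocyte markers summed to 16976 and 36087 FPKM and endothelial markers to 347 and 114 FPKM, in the same order, and their part in the differences was not tested.

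Genes of the same families as Orm1 and Saa3 were read beside them. How the authors' software shared reads between similar genes is not given in the sources used here, and no sequences were compared, so the split between family members is uncertain. Of the orosomucoid genes, Orm2 stood at 4.95 to 6.61 FPKM in epididymal high-fat libraries and at 0.558 to 2.12 FPKM in normal-diet ones, and it rose (log2 difference 1.88, limma adjusted p = 0.0067). Orm3 had means of 5.16 ± 0.299 and 4.03 ± 2.26 FPKM on the normal and high-fat diets in epididymal adipocytes (log2 difference −0.43, limma adjusted p = 0.46) and fell in inguinal ones (2.097 ± 0.899 to 0.354 ± 0.223 FPKM; log2 difference −1.58, limma adjusted p = 0.011). Orm1 held most of the family's signal, at 78.1 FPKM or more in every library against 9.80 FPKM or less for Orm2 and Orm3. Saa1, the liver-type serum amyloid A gene, reached 0.806 to 1.11 FPKM in epididymal high-fat and 4.24 FPKM in the normal-diet brown library, and was listed at 0 in all 3 inguinal high-fat libraries. Saa2 and Saa4 stood at 2.20 FPKM or lower in every library.

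Other acute phase genes gave a mixed picture. Of 24 genes of this list 13 were tested, and in epididymal adipocytes 4 rose, 1 fell and 8 did not pass on the high-fat diet (median log2 0.81, against 0.07 over all genes). Saa1 was among the 13 and met the filter only through the 3 epididymal high-fat libraries (0.806 to 1.11 FPKM). It was at 0.308 FPKM or lower in the other white libraries, so its part in these counts and the median is no support. For this list and those that follow, the shares over all genes are 12.2% higher and 7.35% lower in epididymal and 9.3% higher and 10.2% lower in inguinal adipocytes. Cfb, for complement factor B, rose from 86.6 ± 24.7 to 418 ± 48.1 FPKM (log2 difference 2.30, limma adjusted p = 0.00064), and Ptx3, for a long pentraxin, from 0.975 ± 0.534 to 4.83 ± 1.71 FPKM (1.86, limma adjusted p = 0.048). Albumin (Alb) fell, at low levels, from 3.49 ± 0.879 to 1.15 ± 0.453 FPKM (log2 difference −1.28, limma adjusted p = 0.028). In inguinal adipocytes 1 rose and 2 fell: Cfb rose (log2 difference 1.18, limma adjusted p = 0.032), and Orm3 and Serpina3g fell. Ptx3 lost its call in 14, inguinal Cfb in 8, Alb in 5, Serpina3g in 2 and Orm3 in 1 of 23 alternatives. The other genes of the list, among them Crp, Fgb and Ttr, were below the filter.

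Of 28 signals and regulators of the response 25 were tested; 6 rose and 2 fell in epididymal adipocytes, and 1 rose and 6 fell in inguinal ones. The 2 epididymal falls were near the share over all genes (7.35%), and the 1 inguinal rise was below it (9.3%). Tnf, for tumour necrosis factor, rose in epididymal adipocytes, from 0.214 ± 0.0553 to 13.4 ± 6.51 FPKM (log2 difference 4.16, limma adjusted p = 4.9e-05). Of 12 macrophage markers tested 7 rose and 1 fell in the same epididymal comparison. The part of macrophages in the Tnf difference and the other epididymal rises of this list was not tested. Nfkbiz, for a nuclear inhibitor-like cofactor of NF-kB, rose in epididymal adipocytes (2.57 ± 0.415 to 11.5 ± 4.43 FPKM; log2 difference 1.92, limma adjusted p = 0.00079) and in inguinal ones (log2 difference 1.00, limma adjusted p = 0.034). Nr3c1, the glucocorticoid receptor gene, fell in epididymal adipocytes (log2 difference −0.59, limma adjusted p = 0.0098). Il6ra, for the interleukin 6 receptor, fell in inguinal ones (log2 difference −0.98, limma adjusted p = 0.016). All 12 lymphocyte markers tested fell in the same inguinal comparison (median log2 −4.15). The part of lymphocytes in the inguinal falls of this and the other lists was not tested. Inguinal Nfkbiz lost its call in 7, Il6ra in 4 and Nr3c1 in 1 of 23 alternatives. Il6 itself was below the filter, at a group mean of 0.206 FPKM or less in white adipocytes.

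Among receptors and partners of the 10 proteins, 13 of 15 were tested; 3 rose and 3 fell in epididymal and 3 rose and 1 fell in inguinal adipocytes, against calls for 19.5% of all genes in either depot. Tfr2, the second transferrin receptor, which senses iron-loaded transferrin in the liver, rose in epididymal adipocytes, from 0.439 ± 0.118 to 9.78 ± 2.85 FPKM (log2 difference 3.43, limma adjusted p = 6.3e-05) and in inguinal ones, from 0.697 ± 0.438 to 5.73 ± 2.25 FPKM (2.37, limma adjusted p = 0.0014). Hfe, for the haemochromatosis protein that binds both transferrin receptors, rose from 32.9 ± 6.04 to 126 ± 19.5 FPKM (log2 difference 1.93, limma adjusted p = 0.00018) and from 19.5 ± 6.95 to 94.9 ± 12.005 FPKM (2.30, limma adjusted p = 0.00017). These 4 calls held in all alternatives. Tfrc, the receptor for the bulk uptake of transferrin iron, passed in neither depot. Cp, for the ferroxidase ceruloplasmin, fell from 65.1 ± 7.62 to 19.2 ± 1.501 FPKM in epididymal adipocytes (log2 difference −1.73, limma adjusted p = 0.00016), and fell in inguinal ones (−0.65, limma adjusted p = 0.049, lost in 13 of 23 alternatives). Cd163, the macrophage receptor for haptoglobin and haemoglobin, fell from 14.8 ± 10.1 to 1.84 ± 0.744 FPKM in epididymal adipocytes (log2 difference −2.55, limma adjusted p = 0.017, lost in 3 of 23 alternatives), while 7 of the 12 macrophage markers tested rose. Hamp, the gene of the hormone hepcidin, which acts on ferroportin, was listed at 0 in every library.

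Of 23 genes of iron uptake, storage and regulation 21 were tested; 5 rose and 3 fell in epididymal adipocytes, 2 rose and 4 fell in inguinal ones. The 2 inguinal rises were at the share over all genes (9.3%). Slc11a1, an iron and manganese transporter of phagocytes, rose in epididymal adipocytes from 11.7 ± 2.50 to 65.7 ± 15.7 FPKM (log2 difference 2.43, limma adjusted p = 0.0022). Bmp6, the signal that drives hepcidin in the liver, fell from 15.0 ± 1.23 to 1.43 ± 0.577 FPKM (log2 difference −3.05, limma adjusted p = 3.1e-05), together with the 8 of 9 endothelial markers that fell in the same comparison. Between depots on the high-fat diet 5 of these genes were higher and 1 lower in epididymal adipocytes (10.6% of all genes in either direction). Ftl1, for the ferritin light chain that stores iron, was at 2270 ± 321 FPKM in epididymal and 339 ± 39.6 FPKM in inguinal high-fat adipocytes (log2 difference 2.74, limma adjusted p = 0.00039). Bmp6 was lower in the epididymal ones (log2 difference −1.995, limma adjusted p = 0.0015), as were 8 of 9 endothelial markers. Slc11a1 is also a macrophage gene and moved in the same direction as the macrophage sums. The part of endothelial cells in the Bmp6 differences and of macrophages in the Slc11a1 difference was not tested.

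All 16 genes of heme synthesis, transport and breakdown were tested. On the high-fat diet 3 rose and 1 fell in epididymal adipocytes, and 3 rose in inguinal ones, near the share of all genes called (19.5% in either depot). Slc48a1, a heme transporter of endosomal membranes, rose in epididymal adipocytes, from 63.6 ± 10.2 to 142 ± 4.16 FPKM (log2 difference 1.16, limma adjusted p = 0.00077) and in inguinal ones, from 42.8 ± 8.12 to 109 ± 6.80 FPKM (1.35, limma adjusted p = 0.00067). Blvra, for the biliverdin reductase that acts after heme oxygenase, rose in epididymal adipocytes from 17.4 ± 4.20 to 56.5 ± 3.88 FPKM (log2 difference 1.69, limma adjusted p = 0.00099). The heme exporter gene Flvcr1 was higher in epididymal than in inguinal adipocytes on the high-fat diet (5.68 ± 0.965 against 2.41 ± 0.209 FPKM; log2 difference 1.08, limma adjusted p = 0.0073).

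Of 12 genes listed as NRF2, BACH1 and their targets, to which Hmox1 also belongs, 11 were tested; 2 rose and 2 fell in epididymal adipocytes and 1 rose and 1 fell in inguinal ones. The inguinal share was near that of all genes (19.5%), and the 2 rises and 2 falls in epididymal adipocytes are given as single genes. Nqo1, a quinone reductase gene and a standard NRF2 target, fell from 4.08 ± 0.317 to 1.26 ± 0.133 FPKM in epididymal adipocytes (log2 difference −1.38, limma adjusted p = 0.0014). Gsta4, a glutathione transferase gene, also fell there (22.2 ± 8.13 to 5.16 ± 2.12 FPKM; log2 difference −2.01, limma adjusted p = 0.0023). Srxn1, for sulfiredoxin, rose there (log2 difference 1.05, limma adjusted p = 0.039, lost in 10 of 23 alternatives). Me1, for malic enzyme, rose in both depots (log2 difference 1.07 and 1.34, limma adjusted p = 0.0059 and 0.0025).

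**Figure D5:**
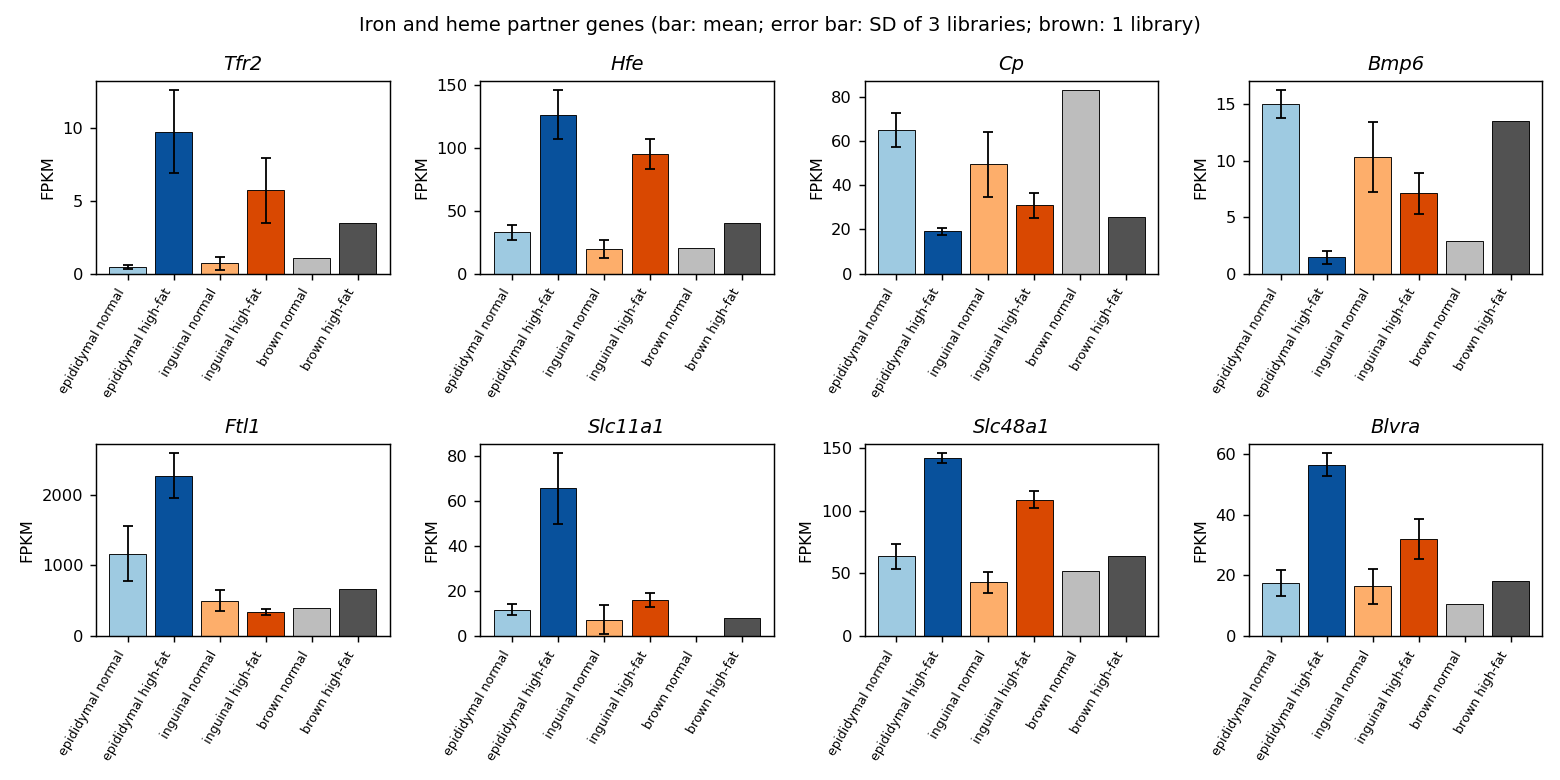
Mean FPKM (bars) of 8 partner genes in the 6 groups, with the SD of 3 libraries as error bar; brown bars are single libraries without error. Tfr2, Hfe and Slc48a1 are higher in both high-fat white groups, Bmp6 is lowest in epididymal high-fat adipocytes (1.43 FPKM), and Ftl1 is highest there (2270 FPKM).

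For each of the 10 genes, the genes with the most similar pattern over the 12 white libraries were listed, as a description (Pearson r on log2(FPKM + 0.5) among 10678 candidates). All points share the 4 groups and the scaling of their libraries. The closest to Lbp was Hfe (r = 0.988), the transferrin receptor partner above, and then Col15a1 (0.985). Closest to Hp were Serpina3n, an acute phase protease inhibitor (0.981), and P4hb (0.963). Hmox1 was closest to Anxa4 (0.983) and Grn (0.970), and Orm1 to the collagen genes Col6a1 (0.977) and Col6a2 (0.974). The closest to Saa3 were Mcfd2 (0.975) and Scamp5 (0.974), to Lcn2 Cab39 (0.972) and Sgpl1 (0.964), and to Hpx Plk2 (0.966) and Idi1 (0.957). Trf was closest to Apoe (0.963) and Rnf185 (0.935), Slc40a1 to Myadm (0.945) and P2ry2 (0.916), and Tfrc to Zdhhc21 (0.832) and Cd274 (0.822).

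Ordered by group means, the level of Lbp ran from epididymal high-fat (282 FPKM) through inguinal high-fat (180), brown high-fat (79.1), epididymal normal (46.1) and inguinal normal (27.9) to brown normal (19.9), and all 3 high-fat groups stood above all 3 normal-diet ones. The ranges of neighbours did not overlap for the first 4 places. Hmox1 ran from epididymal high-fat (67.3 FPKM) through inguinal high-fat (32.2), epididymal normal (27.9), inguinal normal (25.6) and brown high-fat (19.7) to brown normal (8.07), with overlapping ranges from the second to the fifth place. Saa3 was highest in epididymal high-fat adipocytes (173 FPKM), and the brown and inguinal high-fat values (31.0 and 25.2 FPKM) followed. Trf had the reverse order of Lbp at its ends for diet, with the 3 normal-diet groups (2422 FPKM in brown, 1782 in epididymal and 1363 in inguinal adipocytes) above the 3 high-fat ones (1191, 1011 and 586 FPKM), although its white groups overlapped. Tfrc was between 8.61 and 11.6 FPKM in every group but the brown high-fat library (5.11 FPKM).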

How the data were processed

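RNA-seq values of 14 libraries were used. The authors deposited FPKM per gene for 38553 Ensembl identifiers; the aligner TopHat2 2.0.9, Cuffdiff 2.1.1 and the build mm10 are named in the submitters' processing notes, and for annotation, strand setting and normalization nothing is given in the sources used here. No unit is named in the file headers; FPKM was inferred from Cuffdiff and the value distributions. Symbols were matched to 36638 identifiers, and all 10 genes were found. The 10 genes and all lists were chosen with earlier results of these data known.

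The 12 white libraries were fitted with limma 3.58.1 (R 4.3.3; an empirical Bayes fit with a mean trend) on log2(FPKM + 0.5), with 4 group means (8 residual degrees of freedom) and 5 contrasts. Genes needed 0.5 FPKM in at least 3 libraries, which left 14959; all 10 members passed, Hpx through the 6 high-fat libraries and 1 epididymal normal-diet one. A two-sided Benjamini-Hochberg adjusted p under 0.05 over all genes tested was a call. Log2 differences on this scale understate changes of low genes, and a difference of a gene listed at 0 depends on the pseudocount. The limma script was tested on simulated data. The series calls the white replicates biological, but pools of different mice are the unit, and depth could not be used to judge single values.

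Genes of the pathway lists were named by rule: up to 2 each way per list and contrast, taking the largest log2 differences among called genes whose mean reached 2 FPKM; some of these are given here as counts only. Genes of similar pattern had to reach the same mean. Cd68, Trem2 and S100a8 were chosen from the marker lists after their values were seen.

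Alternatives were pseudocounts of 0.1 and 1, dropping the filter or raising it to 2 FPKM, quantile normalization, TMM factors (trimming 30% and 5%), equal nuclear sums (over nuclear protein-coding genes, since short noncoding features dominate the sums of all genes), array weights, a fit of only the 2 groups compared, a block for the replicate number, and each library left out. Leaving out both inguinal normal-diet replicates 0 and 2 was added after seeing the data. The labels do not say what a replicate number marks. Deviations from group means of same-numbered libraries had correlations of 0.184, 0.111 and 0.146 in the comparison of depots under high-fat feeding, so the numbers may pair those libraries; this pairing comes from the data and not from the labels.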

Additional observations from a re-analysis of the deposited data

Results flagged for a closer look

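Of the 10 genes, the interaction test called the ferroportin gene Slc40a1, while 7.22% of all genes were called in either direction. Its diet effect was lower in epididymal than in inguinal adipocytes (log2 difference −2.27, SE 0.54, limma adjusted p = 0.028). In inguinal adipocytes 3 of 3 high-fat libraries lay above every normal-diet library, and in epididymal adipocytes the groups overlapped, with a mean of 1.92 FPKM on the high-fat and 3.75 FPKM on the normal diet. The Slc40a1 call was lost with epididymal high-fat replicate 0, 1 or 2 left out (limma adjusted p = 0.0534, 0.0795 and 0.0609) and in the other alternatives named with the interaction above. Without both inguinal normal-diet replicates 0 and 2 the log2 difference was −1.73.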

How the results depend on the processing

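Read depth is unknown, so how far counting noise limits low genes such as Hpx and Slc40a1 cannot be given, and precision rests on 3 libraries per white group and 1 per brown group. Over the 10 genes, 988 results under alternatives kept their direction and side of the threshold, 66 lost a call, 45 gained one and 36 changed sign; none of the sign changes was in a called difference. Of 57 results on named genes of the pathway lists, 21 held under all alternatives and 36 lost their call under at least 1.

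Counts of all genes called are given in the order epididymal diet effect, inguinal diet effect, interaction, depot difference on the normal diet and depot difference on the high-fat diet, from main counts of 2918, 2914, 1080, 974 and 1587. With array weights they were 5110, 4612, 2836, 2098 and 3681, and without a filter the interaction and the normal-diet depot counts were 695 and 577. With only the 2 groups fitted the inguinal count was 713 and the depot counts were 14 and 2993. Without both inguinal normal-diet replicates 0 and 2 the inguinal and the depot counts were 904, 493 and 2593. Leaving out 1 library gave 1786 to 3669, 1654 to 4627, 430 to 2541, 251 to 2988 and 767 to 2150 genes; each highest count came without inguinal normal-diet replicate 1.

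Among the 10 genes, 1 was called lower in the epididymal diet effect under quantile normalization and 2 with array weights. In the inguinal diet effect 2 were called higher without a filter or with only the 2 groups, and 1 higher and 1 lower without both inguinal normal-diet replicates 0 and 2. In the interaction the higher calls were 1 with array weights and 4 without both replicates, and the lower calls 0 without a filter and 0 without both. On the normal diet the depot contrast called 2 under quantile normalization, 0 with only the 2 groups, 4 with array weights and 0 without both replicates. On the high-fat diet it called 1 with a pseudocount of 0.1, 1 without a filter, 6 with only the 2 groups, 6 with array weights and 5 without both replicates. With 1 library left out, members called higher ranged from 3 to 7, 1 to 5, 0 to 1, 0 to 5 and 1 to 4 in the 5 contrasts, and members called lower in the interaction from 0 to 1. In brown libraries 3 genes rather than 5 were past 2-fold lower with equal nuclear sums.

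Scaling moved the share of calls in the higher direction. With equal nuclear sums 1388 genes were higher and 1587 lower for the epididymal diet effect, 549 and 607 for the interaction, and 652 and 908 for the depot difference on the high-fat diet. For the interaction the split was 572 and 603 under quantile normalization and 660 and 518 with TMM factors, and for the normal-diet depot difference 687 and 621 under quantile normalization. Equal nuclear sums moved the median of all genes from 0.07 to −0.09 (epididymal diet effect) and from 0.04 to −0.16 (depot difference on the high-fat diet).

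The cause of the sign changes was not tested. In the inguinal diet effect they were Hp (−0.58 under quantile normalization, −0.98 without both replicates), Tfrc (−0.0083 with equal nuclear sums, −0.088 with array weights), Trf (0.20 with array weights) and Hmox1 (−0.46 without both). In the interaction they were Saa3 (−0.16) and Orm1 (−0.028) with array weights, and Lbp (0.67) and Trf (0.65) without both. In the normal-diet depot difference, all without both, they were Saa3 (−0.58), Hp (−0.88), Lcn2 (−1.21), Orm1 (−0.38), Lbp (−0.032), Trf (−0.43) and Hmox1 (−0.68). In the high-fat depot difference they were Tfrc (0.0096 with array weights) and Trf (−0.014 with equal nuclear sums). With 1 library left out at a time, signs also changed within these ranges. The inguinal diet effect ran from −0.21 to 0.74 for Hp, −1.60 to 0.042 for Lcn2, −0.057 to 0.21 for Tfrc and −0.61 to 0.22 for Trf. The interaction ran from −0.085 to 1.89 for Saa3, −0.70 to 0.15 for Lbp and −0.77 to 0.059 for Trf. The normal-diet depot difference ran from −0.12 to 0.83 for Hp, −0.30 to 1.34 for Lcn2, −0.10 to 0.45 for Orm1 and −0.068 to 0.74 for Hmox1, and the high-fat one from −0.21 to 0.055 for Tfrc.

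The same correlations of deviations, for replicates 0, 1 and 2, were 0.180, 0.082 and 0.163 in the epididymal diet effect. They were 0.272, 0.098 and 0.007 in the inguinal diet effect and 0.133, 0.029 and 0.076 in the normal-diet depot difference. Every replicate matched its own number best in the epididymal diet effect and in both depot differences. In the inguinal diet effect only replicate 0 did. Whether a shared number marks paired libraries was not tested. The replicate block gave 3404, 3453, 1152, 1085 and 1777 genes called in the 5 contrasts. It called 1 member higher in the interaction (Lcn2), added Orm1 in the inguinal diet effect and Hmox1 in the high-fat depot difference, and changed no other call of the 10 genes.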
